A study of Mus musculus with 8 samples.

Results

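The miR-15/16 family and the related locus of miR-322 and miR-503 were followed in small RNA libraries of bone marrow LSK cells from diabetic and control mice. Members were all rows of the deposited table named miR-15a, miR-15b, miR-16, miR-195a, miR-322, miR-497a or miR-503 with any strand suffix. There were 7 of 190 rows, from 6 of the 7 names, and miR-497a was not analysed here. LSK cells lack lineage markers and carry Sca1 and cKit, and they hold the blood-forming stem cells and early progenitors. The db/db group carried the db allele of Lepr, which encodes the leptin receptor, on both chromosomes (strain label B6.BKS(D)-Leprdb/J), a model of obesity with type 2 diabetes. The db/m group carried it on 1 chromosome (B6.BKS(D)-Leprdb/+), so every library carried at least 1 copy of the mutation. Each genotype had 4 libraries, and all 8 bear the note of 6 months of diabetes, the controls included. The 8 libraries carry only 4 title numbers, none of which occurs in both genotypes, so some libraries share a number. The labels do not say whether libraries of 1 number are independent. The tests treat them as independent, except where title numbers were summed. Titles and the deposited project sheet call all 8 samples db/m, so the groups rest on the genotype and strain labels, as does the naming of libraries as replicates 1 to 4. The labels give neither sex, age in weeks nor the number of animals behind a library, so p-values measure only the spread between these samples, which may be technical.

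As background, miR-15 and miR-16 are known as brakes on the cell cycle and on survival, because they repress D-type and E-type cyclins, Cdk6 and Bcl2. Loss of the human miR-15a/16-1 locus is a common lesion of chronic lymphocytic leukaemia. miR-322, the mouse counterpart of human miR-424, and miR-503 come from 1 X-linked cluster, repress Cdc25a and G1 cyclins, and are known in mouse muscle cells for promoting cell-cycle exit.

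The mature sequences are shown because a shared seed is what joins these miRNAs into a family, while their remaining bases tell them apart. They were taken from RefSeq (GRCm38.p6, strand of the hairpin, 5′ to 3′), and capitals mark the seed, bases 2 to 8 counted from the 5′ end.
miR-15a-5p: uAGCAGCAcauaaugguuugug
miR-15b-5p: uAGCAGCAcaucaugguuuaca
miR-16-5p: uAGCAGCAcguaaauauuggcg
miR-195a-5p: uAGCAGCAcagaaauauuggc
miR-322-5p: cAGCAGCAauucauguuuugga
miR-503-5p: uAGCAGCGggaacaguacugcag
miR-15b-3p: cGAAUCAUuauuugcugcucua

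The seed AGCAGCA was shared by 5 members, and it occurred in no other row among the 163 of 190 that matched a RefSeq mature sequence by name. The seed of miR-503-5p differed from it at the last base (A8G against miR-16-5p). miR-15b-3p, the opposite strand of the miR-15b hairpin, has an unrelated seed. Over the whole length, seed included, the closest pair was miR-16-5p and miR-195a-5p. They had the same base at 19 of 21 shared positions (11 of 13 past the seed) and differed at G10A and U11G. Likewise with the seed included, miR-15a-5p and miR-15b-5p had the same base at 18 of 22 positions, and miR-16-5p and miR-322-5p at 12 of 22. No source used here gives the rule for reads that match several such sequences, so the counts of miR-195a-5p, which stood far below those of miR-16-5p, are uncertain.

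The members come from 4 places in the genome (GRCm38, the mm10 build named by the submitters, with hairpins from GENCODE M21). On the minus strand of chromosome 14, the miR-15a hairpin spans 61632027 to 61632110, in an intron of the noncoding RNA gene Dleu2. The miR-16-1 hairpin lies 54 bases from it, from 61631880 to 61631972, and overlaps an annotated exon of Dleu2. On the plus strand of chromosome 3, the miR-15b hairpin (69009772 to 69009835) and the miR-16-2 hairpin (69009902 to 69009996) both lie in introns of Smc4, the gene of a condensin subunit, with 66 bases between them. Mature miR-16-5p is identical from both loci, so its counts cannot be split between chromosomes 14 and 3. The miR-322 hairpin (53054255 to 53054349) and the miR-503 hairpin (53053984 to 53054054) lie 200.0 bases apart on the minus strand of chromosome X, outside annotated genes. The miR-195a hairpin spans 70235042 to 70235135 on the plus strand of chromosome 11, likewise outside annotated genes.

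Total counts ran from 13273 in db/m replicate 2 to 77834 in db/m replicate 3, and from 36145 to 54228 in db/db. A single count was therefore worth 76.4 CPM (taken over the TMM-scaled library size) in db/m replicate 2 and 13.4 to 27.0 CPM in the other 7 libraries. A filter on low counts kept 144 of 190 miRNAs for testing. Rows existed for 9 of 9 listed stem and progenitor miRNAs, with a summed level of 68722 to 104339 CPM in db/m and 97851 to 131103 CPM in db/db, and 2 of these 9 (miR-126a-3p and miR-196b-5p) passed adjusted p of 0.05 by edgeR, as did 4.86% of all 144 tested miRNAs. The Sca1 and cKit transcripts that define the sort are not in a miRNA table. Of the miRNAs listed for other cells, miR-486a-5p (erythroid, the row for 1 of 5 listed) stood at 2252 to 3388 CPM in db/m and 1108 to 5754 CPM in db/db. The myeloid miR-223-3p (1 of 2) stood at 7641 to 10364 and 6619 to 12739 CPM, and the lymphoid miR-150-5p (1 of 1) at 3523 to 8864 and 2980 to 4107 CPM. Stromal or vascular miRNAs (2 of 6) summed to 76.4 to 498 CPM in db/m and 175 to 1236 CPM in db/db, and liver or muscle miRNAs (2 of 4) to 460 to 1605 and 470 to 1837 CPM. None of the rows found was at 0 in all libraries. Of the rows listed for other cells, no tested one passed, and only 1 of 2 was tested in each of the last 2 lists. The part of these rows in the values below was not tested. With counts from whole sorted fractions, fewer cells of a type and less of a miRNA per cell cannot be told apart.

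miR-16-5p dominated the family in every library. It held 30968 of the 33564 member counts, or 92.3%, and ranked 4th of the 190 rows by mean CPM. All members together took 8.81% ± 0.770 of the db/m counts and 9.13% ± 0.953 of the db/db counts (SD, 4 libraries each). By mean CPM over the 8 libraries miR-16-5p was 25.0 times miR-15b-5p, and it was higher in 8 of 8. miR-15b-5p stood above miR-322-5p in 6 of 8 libraries, so these neighbours in the order were close. miR-322-5p stood above miR-15a-5p in 8 of 8, and miR-15a-5p above miR-15b-3p in 7 of 8. The lowest 3, miR-15b-3p, miR-503-5p and miR-195a-5p, could not be ordered, since miR-15b-3p exceeded miR-503-5p in 4 of 8 libraries and miR-503-5p exceeded miR-195a-5p in 5 of 8. Different miRNAs can be captured with different efficiency in a library, which these counts do not show.

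**Figure D1:**
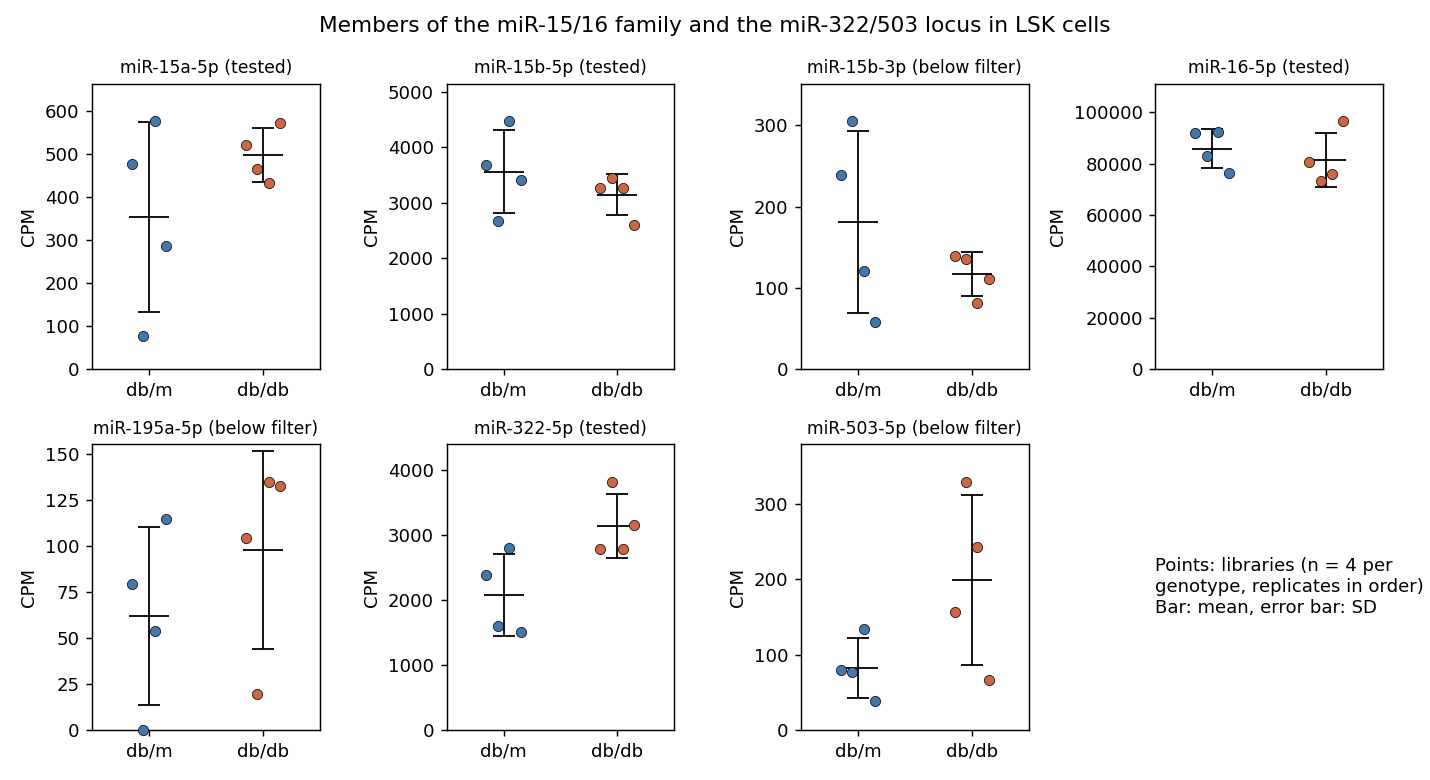
CPM of the 7 members in each of 4 db/m and 4 db/db libraries, on linear axes that start at 0, with the mean and SD. The means of miR-322-5p, miR-503-5p, miR-15a-5p and miR-195a-5p are higher in db/db and those of the other 3 members lower, with overlapping groups for all 7, and miR-16-5p lies between 73087 and 96682 CPM in all 8 libraries.

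At the miR-15/16 loci no tested member differed past the threshold between genotypes. mmu-miR-16-5p stood at 91834, 83058, 92199 and 76338 CPM in the db/m libraries, in the order of their replicate numbers as for all values below, and at 80451, 73087, 76077 and 96682 CPM in the db/db libraries. The groups overlapped over most of their range, and the highest library was a db/db one. The means were 85857 ± 7624 and 81574 ± 10516 CPM (SD, n = 4 each). Its log2 fold change of db/db against db/m was -0.07 (SE 0.12, 95% interval -0.34 to 0.19; edgeR quasi-likelihood adjusted p = 0.826), and its sign turned under scaling by library totals (0.032) and with db/db replicate 3 left out (0.013). The interval leaves room for a change of up to about 0.34 on the log2 scale, so equal levels are not shown.

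mmu-miR-15b-5p, made with miR-16-2 from the Smc4 intron, stood at 3683, 2674, 4477.5 and 3410 CPM in db/m and at 3258, 3440, 3269 and 2605 CPM in db/db. The db/m libraries held both the highest value and 1 of the 2 lowest, so the groups overlapped. The log2 fold change was -0.20 (SE 0.21, 95% interval -0.65 to 0.25, edgeR adjusted p = 0.631). The opposite strand, mmu-miR-15b-3p, had 3 to 9 counts per library, too few for the filter. Its levels were 238, 306, 121 and 57.5 CPM in db/m and 139, 136, 81.0 and 110 CPM in db/db, and the db/db values lay inside the db/m range.

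mmu-miR-15a-5p, the partner of miR-16-1 in Dleu2, stood at 477, 76.4, 578 and 287 CPM in db/m and at 523, 466, 432 and 574 CPM in db/db. The low db/m replicate 2 rests on 1 count in the shallowest library, and the other libraries had 15 to 43 counts. The log2 fold change was 0.34 (SE 0.40, 95% interval -0.51 to 1.20, edgeR adjusted p = 0.666), and 0.14 without db/m replicate 2. mmu-miR-195a-5p, known in the mouse heart for halting the division of muscle cells after birth, was near the floor with 0 to 6 counts per library. It stood at 79.5, 0, 53.8 and 115 CPM in db/m and at 105, 19.4, 135 and 132 CPM in db/db, and the 0 in db/m replicate 2 allows up to 3 counts, worth 229 CPM there. These floors cover counting error only.

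At the locus of miR-322 and miR-503 both members had higher means in db/db, without passing the threshold. mmu-miR-322-5p stood at 2385, 1605, 2810 and 1513 CPM in db/m and at 2788, 3828, 2783 and 3157 CPM in db/db. Only db/m replicate 3 reached into the db/db range, where it lay just above the 2 lowest db/db libraries. The means were 2078 ± 625 and 3139 ± 492 CPM (SD, n = 4 each), from 399 and 603 counts in all. The log2 fold change was 0.57 (SE 0.25, 95% interval 0.04 to 1.10), or 1.49-fold, with an edgeR p of 0.0371 before adjustment and an adjusted p of 0.183. Over the 8 fits that left out 1 library each it lay between 0.43 and 0.71, and the adjusted p between 0.0690 and 0.419.

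mmu-miR-503-5p had 16 counts over the 4 db/m libraries and 38 over the 4 db/db libraries, and it did not reach the filter. It stood at 79.5, 76.4, 134 and 38.3 CPM in db/m and at 157, 330, 243 and 66.2 CPM in db/db. In db/db, replicates 1 to 3 lay above all db/m libraries, and replicate 4 lay below 3 of them. In the fit without a filter the log2 fold change was 1.12 (SE 0.59, 95% interval -0.15 to 2.38, edgeR adjusted p = 0.291).

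Of the 4 members tested, 0 passed adjusted p of 0.05 by edgeR's quasi-likelihood test, where 4.86% of all 144 tested miRNAs passed. At unadjusted p under 0.05 there was 1 member, miR-322-5p, where 22.2% of all tested miRNAs had such a p. The groups did not overlap for 0 of the 4, against 17.4% of all tested. Without a filter 0 of the 7 members passed, where 2.63% of the 190 rows did. DESeq2 called 0 of the 4 tested members, where it called 16, or 13.2%, of the 121 miRNAs to which it gave an adjusted p. Of the 4 tested members 2 had a log2 fold change above 0 and 2 below, with a median of 0.13 beside a median of -0.03 over all 144, and scaling by library totals moved all tested miRNAs by a median of 0.11. In the authors' deposited table, log2 fold changes were 0.50 for miR-322-5p (false discovery rate 0.289), 1.12 for miR-503-5p (0.299), 0.26 for miR-15a-5p (0.805), -0.15 for miR-16-5p (0.678) and -0.28 for miR-15b-5p (0.496). The authors' deposited table also gave 0.29 for miR-195a-5p (0.858) and -0.43 for miR-15b-3p (0.783), so no member was below 0.05 there.

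**Figure D2:**
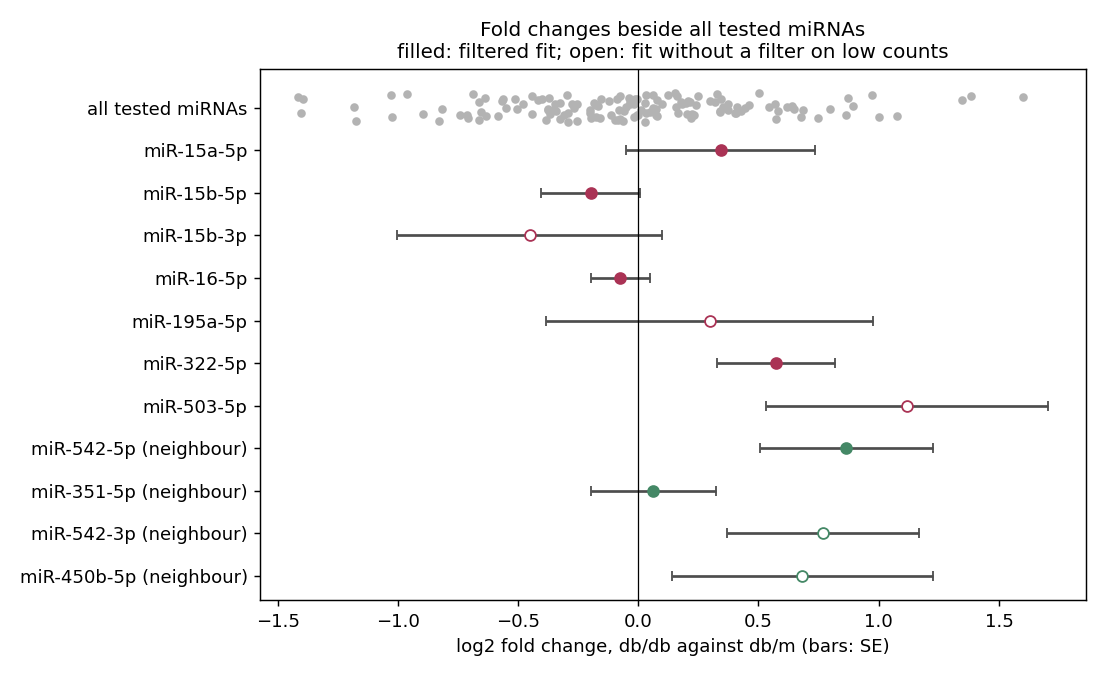
Log2 fold changes of db/db against db/m with SE for the 7 members and 4 X-linked neighbours, beside all 144 tested miRNAs as grey points (spread vertically for legibility). The bars of the miR-15/16 members and miR-195a-5p cross 0, and miR-322-5p (0.57) and miR-503-5p (1.12) lie above it.

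The loci were compared through ratios of counts inside a library, which need no scaling between libraries. Per 1000 counts of miR-16-5p there were 26.0, 19.3, 30.5 and 19.8 counts of miR-322-5p in the db/m libraries, against 34.7, 52.4, 36.6 and 32.7 in the db/db libraries. All 4 db/db libraries lay above the 4 db/m libraries. The mean log2 ratio was -5.40 ± 0.31 for db/m and -4.70 ± 0.31 for db/db (SD, n = 4 each), a difference of 0.70 or 1.63-fold. The exact two-sided permutation p was 0.0286, which is the lowest value this design allows. Adjusted over the 3 ratios tested (Benjamini-Hochberg), the exact p became 0.0857. The ratio therefore did not pass 0.05. With this adjustment it could have passed only if another of the 3 ratios also had the lowest exact p. Full separation in 1 ratio alone was thus bound to fail, and the failure does not weigh against a difference. Among the 143 tested miRNAs besides miR-16-5p, 13.3% had a ratio to miR-16-5p whose groups did not overlap, and 16, miR-322-5p included, had a difference of at least 0.70 upward.

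As summed counts, the members of the miR-15/16 loci took 8.60% ± 0.716 of the db/m counts and 8.78% ± 0.976 of the db/db counts. Those of miR-322 and miR-503 took 0.206% ± 0.0611 and 0.343% ± 0.0561 (SD, 4 libraries each).

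Within each locus the balance of the members was measured less well. Per 1000 counts of miR-322-5p there were 33.3, 47.6, 47.8 and 25.3 counts of miR-503-5p in the db/m libraries, against 56.2, 86.3, 87.4 and 20.98 in the db/db libraries, and db/db replicate 4 was the lowest of all 8. The log2 ratio differed by 0.37 (exact permutation p = 0.514, adjusted p = 0.514), and by 0.06 when 2 rather than 0.5 was added to each count. Leaving out 1 library at a time moved it between 0.15 and 0.79. Per 1000 counts of miR-16-5p there were 5.19, 0.920, 6.27 and 3.76 counts of miR-15a-5p in the db/m libraries, against 6.50, 6.38, 5.68 and 5.94 in the db/db libraries. The db/db values sat inside a narrow band, with 2 of 4 above all db/m values. The log2 ratio differed by 0.77 (exact permutation p = 0.0857, adjusted p = 0.129), and by 0.30 without db/m replicate 2. Since miR-16-5p also comes from the Smc4 locus, this ratio does not give the balance inside the Dleu2 locus.

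**Figure D3:**
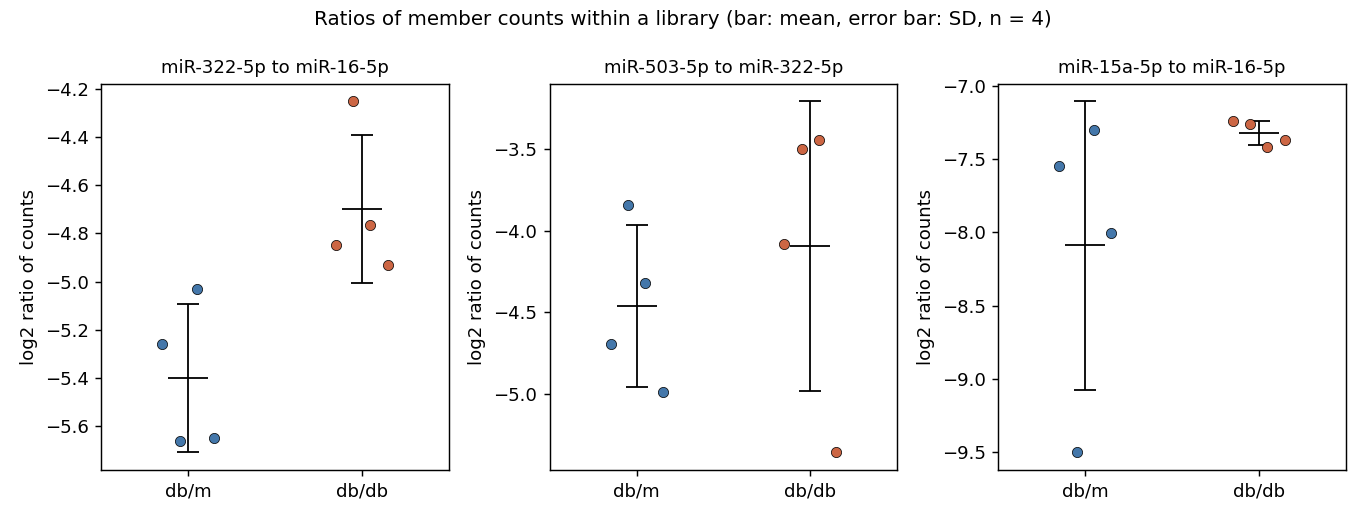
Log2 ratios of member counts in each of 4 db/m and 4 db/db libraries, with 0.5 added to each count, and the mean and SD of each genotype. The ratio of miR-322-5p to miR-16-5p is higher in all 4 db/db libraries, while the other ratios overlap between genotypes.

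The same stretch of chromosome X holds further hairpins, and rows existed for 4 of their mature strands. Downstream of miR-503 lie miR-351 at a gap of 630.0 bases, then miR-542 after 3767 bases and miR-450b after 1324 bases. miR-542-5p stood at 159, 229, 229 and 249 CPM in db/m and at 401, 389, 594 and 221 CPM in db/db, from 3 to 23 counts per library. The groups overlapped through db/db replicate 4. Its log2 fold change was 0.87 (SE 0.36), with an edgeR p of 0.0323 before adjustment and an adjusted p of 0.171. miR-351-5p, at a level close to that of miR-322-5p, stood at 1802, 1299, 1963 and 2337 CPM in db/m and at 1342, 2351, 2431 and 1788 CPM in db/db. Its groups overlapped throughout, and the fold change was 0.06 on the log2 scale (SE 0.26, edgeR adjusted p = 0.932), whose sign turned without a filter (-0.02). Below the filter, miR-542-3p had 2 to 19 counts per library a log2 fold change of 0.77 (SE 0.40) and groups that did not overlap by a margin of under 1 count (at most 188 CPM for db/m, at least 189 for db/db), and miR-450b-5p had 1 to 10 counts and 0.68 (SE 0.54), both in the fit without a filter. Of the 2 neighbours tested 0 passed, against 4.86% of all, and the difference between miR-351-5p and the other members of the cluster was not tested. The log2 ratio of miR-322-5p to miR-351-5p was 0.15 ± 0.52 for db/m and 0.69 ± 0.36 for db/db (SD, n = 4 each), with 3 of 4 db/db libraries above all db/m libraries.

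**Figure D4:**
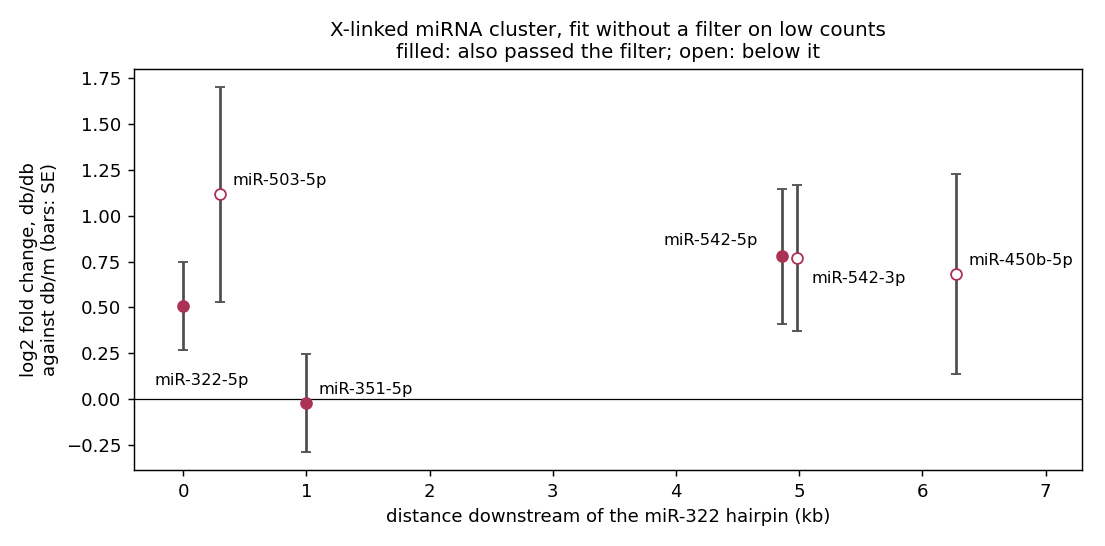
Log2 fold changes of db/db against db/m with SE, all from the fit without a filter, for the 6 mature strands of the X-linked cluster, by distance of the hairpin from that of miR-322 in kb (miR-542-3p is drawn slightly to the right of its partner strand). The values lie above 0 except that of miR-351-5p (-0.02), and no strand passed adjusted p of 0.05.

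Besides the members, 2 rows had AGCAGC within the first 9 bases of the mature sequence. They are shown because their seed is shifted by 1 base against that of the family, which it otherwise overlaps. The pair, known from work on insulin sensitivity in the mouse, differs from each other near the 3′ end.
miR-103-3p: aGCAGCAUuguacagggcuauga
miR-107-3p: aGCAGCAUuguacagggcuauca

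miR-103-3p stood at 6624, 4661, 7194 and 5824 CPM in db/m and at 7841, 6801, 7564 and 8368 CPM in db/db, and db/m replicate 3 lay above the lowest db/db library. Its log2 fold change was 0.32 (SE 0.19, edgeR adjusted p = 0.333). miR-107-3p, at 76.4 to 690 CPM in db/m and 408 to 596 CPM in db/db, differed by 0.18 on the log2 scale (SE 0.39, edgeR adjusted p = 0.909). A wider list of 14 miRNAs known to repress G1 cyclins or their kinases, this pair included, had 10 rows tested, 8 with log2 fold changes above 0 and 2 below, and a median of 0.25. None of the 10 passed in either direction, while 5 had an unadjusted edgeR p under 0.05 (22.2% of all tested miRNAs did). Of those 5, let-7a-5p and let-7b-5p were lower in db/db, and miR-26a-5p, miR-29a-3p and miR-29c-3p were higher. The groups did not overlap for 4 of the 10 (17.4% of all). The list holds 4 names without a row, which were not analysed here. The 4 most abundant rows were let-7a-5p (-0.38, adjusted p = 0.0637), let-7b-5p (-0.32, 0.153), miR-26a-5p (0.46, 0.111) and miR-26b-5p (0.17, 0.631) by edgeR.

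The miRNAs whose pattern over the 8 libraries was most like that of a member were mostly not its relatives. Likeness was measured as the root-mean-square difference of log2 CPM, each miRNA centred on its own mean. For miR-322-5p the nearest of 143 others were miR-19b-3p (0.15), miR-196b-5p (0.21) and miR-19a-3p (0.23), against a median of 0.57. miR-196b-5p, encoded in the Hoxa cluster, was one of the miRNAs that passed the test (log2 fold change 0.75, edgeR adjusted p = 0.0436). For miR-16-5p the nearest were miR-191-5p (0.15), let-7g-5p (0.17) and miR-25-3p (0.17), and miR-15b-5p ranked 23rd (0.27). For miR-15b-5p they were miR-181a-2-3p (0.12), miR-221-3p (0.18) and let-7c-5p (0.19). For miR-15a-5p they were miR-34a-5p (0.32), let-7j (0.34) and miR-20a-5p (0.39), and miR-16-5p ranked 51st (0.72). miR-34a-5p, like miR-15a-5p, had 1 count in db/m replicate 2. These are descriptions over 8 libraries that share depth and scaling.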

How the data were processed

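Counts, whole numbers for each mature miRNA, are raw per the file headers and were deposited by the authors from QIAseq miRNA libraries of Trizol RNA, per the labels' protocols. The authors' log2 fold changes, p-values and false discovery rates of diabetic against control libraries came with them, per the file headers. The submitters' processing notes list edgeR 3.41.9 and mm10. No aligner or handling of molecular identifiers is stated in the sources used here.

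Genotypes were compared by edgeR 4.0.16 under R 4.3.3, with TMM, robust glmQLFit and glmQLFTest with genotype as the sole term. The filter was filterByExpr with a minimum count of 10, which is not required in every library, and a minimum total of 15. Adjustment was by Benjamini-Hochberg over the 144 miRNAs kept, with a threshold of 0.05. The code was tested on simulated data. SE is the log2 fold change over the square root of F, and 95% intervals use the t distribution with edgeR's total degrees of freedom. Ratios used log2 of counts plus 0.5 and an exact two-sided permutation test in scipy 1.17.1. DESeq2 1.42.0, other scalings and left-out libraries were alternatives. All rows matching the rule were named, with X-linked neighbours, rows holding AGCAGC early and the 3 likest miRNAs of each tested member. Members and lists were chosen with earlier results of these data known. Columns were joined to samples by the number and suffix in their names, leaving 0 count columns without a sample.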

Additional observations from a re-analysis of the deposited data

How the results depend on the processing

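No setting brought a member past adjusted p of 0.05: the count was 0 under other scalings, no filter, DESeq2, the likelihood ratio test, summed title numbers, the replicate block and in each of the 8 fits without 1 library. The log2 fold change of miR-16-5p was above 0 with libraries scaled by their totals (0.032) and in the fit without db/db replicate 3 (0.013). Without 1 library at a time, log2 fold changes lay between -0.13 and 0.013 for miR-16-5p, 0.14 and 0.61 for miR-15a-5p, -0.31 and -0.05 for miR-15b-5p, and 0.43 and 0.71 for miR-322-5p. The ratio of miR-322-5p to miR-16-5p differed by 0.55 to 0.82, that of miR-503-5p to miR-322-5p by 0.15 to 0.79 and that of miR-15a-5p to miR-16-5p by 0.30 to 1.03. There the smallest exact p that 3 libraries against 4 can give is 0.0571, so no ratio could pass.

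The title suffixes, shared by the genotypes except for suffix 3 of db/m replicate 3, number libraries within a title number and are no stated pairing. Under a block on the suffix, db/m replicate 3 therefore does not inform the genotype difference. Leaving that library out, without any block, gave log2 fold changes of 0.70 for miR-322-5p and 0.61 for miR-15a-5p. Deviations of libraries with the same suffix correlated between -0.351 and 0.314 across miRNAs (median 0.028). Those with different suffixes correlated between -0.314 and 0.191 (median 0.017). With the suffix as a replicate block the log2 fold change of miR-322-5p was 0.72 (adjusted p = 0.102 by edgeR), that of miR-15a-5p 0.76 (0.306), that of miR-15b-5p -0.015 (0.966) and that of miR-16-5p -0.050 (0.885). Under the block the fold change of miR-15a-5p, of a miR-15/16 locus, was as high as that of miR-322-5p but less certain (SE 0.46 against 0.27). It leans on db/m replicate 2, the only db/m library with its suffix, which had 1 count of miR-15a-5p. Without that library and without a block, the log2 fold change of miR-15a-5p was 0.14. Over all tested miRNAs 11 rather than 7 passed with it. Over all miRNAs, DESeq2 called 16 of the 121 with an adjusted p. Library sizes that leave out the top 5 miRNAs gave 11 of 144, and RLE scaling and library totals 7 of 144 each. Title numbers summed gave 15 of 186, the likelihood ratio test 13 of 190 and the fit without a filter 5 of 190. The fits without db/m replicates 1 to 4 called 3 of 154, 9 of 154, 18 of 144 and 3 of 148. Those without db/db replicates 1 to 4 called 3 of 147, 6 of 146, 5 of 154 and 8 of 155. The cause of these shifts was not tested. Depth limited miR-503-5p, miR-195a-5p and miR-15b-3p most, with at most 17 counts in any library.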

Other observations

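The ratio of miR-322-5p to miR-15b-5p, chosen after its values were seen and not tested, was 647, 600.0, 628 and 444 counts per 1000 in the db/m libraries, against 856, 1113, 851 and 1212 in the db/db libraries. All 4 db/db libraries lay above the 4 db/m libraries, and the mean log2 ratio was -0.80 ± 0.25 for db/m and -0.0064 ± 0.26 for db/db (SD, n = 4 each). How many other miRNAs separate in their ratio to miR-15b-5p was not counted, and for ratios to miR-16-5p the share was 13.3%. The ratio uses the same miR-322-5p counts as that to miR-16-5p, so it is no separate support. miR-322-5p was thus below miR-15b-5p in all 4 db/m libraries and above it in db/db replicates 2 and 4.

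Counts of miR-15b-3p per 1000 of miR-15b-5p ran from 16.9 to 114 in db/m and from 24.8 to 42.8 in db/db, from at most 9 counts of the minor strand per library. No library of either genotype stood far from the other 3 of its group in a member's CPM or in the 3 tested ratios, by Dixon's test over 20 groups of 4 libraries.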
